A study of Homo sapiens with 12 samples.

Results

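The genes described here are 43 human genes of cell division, 36 that act in mitosis and 7 that act in DNA replication. They were chosen by symbol from what the genes are known to do, with earlier results of these data already known. Each is represented by the probe set with the highest mean over the 12 arrays among the probe sets that the platform annotation gives exactly 1 symbol, and all 43 were found among 11963 genes measured in this way. RNA of 6 human lymphoma cell lines was hybridised to Affymetrix HG-U133A arrays, and each line had 2 arrays. The labels give Hodgkin cells for KM-H2, L1236 and L428 and B-cell lymphoma cells for SU-DHL4, SU-DHL6 and Namalwa. All lines were untreated and grown in RPMI 1640 medium with fetal bovine serum. Each type is therefore a sample of 3 established lines, and the labels give neither growth rate nor cell density at harvest. The design text states that the arrays of KM-H2, L1236, L428 and Namalwa had been published earlier and that those of SU-DHL4 and SU-DHL6 were newly made, so Namalwa is the only B-cell line in the same dataset as the Hodgkin lines. The series compared the Hodgkin lines with the B-cell lines.

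Mitosis is driven by cyclins bound to the kinase CDK1, is paced by kinases such as PLK1, AURKA and AURKB, and is held back by the spindle checkpoint until every kinetochore is attached. The ubiquitin ligase activated by CDC20 then frees separase, which parts the sister chromatids. Before this, the MCM helicase opens DNA at replication origins and PCNA clamps the polymerases to the template. Most mitotic genes are transcribed late in the cell cycle through promoters that bind the DREAM complex and later MYBL2 and FOXM1, whereas replication genes are transcribed earlier under E2F control. In RNA from a whole culture, the share of cells in mitosis and the amount of RNA per mitotic cell cannot be told apart.

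The 2 sets of genes differed in their promoters. Windows of 300 bases, from 250 before to 50 after the transcription start, were read from RefSeq on GRCh38.p14 for 30 of the 36 mitosis genes, 5 of the 7 replication genes and 9563 of the 11963 genes measured, with the first listed start for each gene. These windows were searched on both strands for the letters TTTGAA, a core of the cell cycle homology region (CHR) that DREAM binds, for CCAAT, the box bound by NF-Y, and for 4 E2F words, TTTCCCGC, TTTCGCGC, TTTGCCGC and TTTGGCGC. E2F words on opposite strands can overlap. TTTGAA was found in 20 of 30 mitosis windows (66.7%), in 0 of 5 replication windows and in 11.0% of the windows of measured genes. An E2F word was found in 2 of 30 mitosis windows (6.67%), in 5 of 5 replication windows and in 4.88% of the windows of measured genes. CCAAT was found in 83.3%, 80.0% and 37.3% of them, and TTTGAA together with CCAAT in 60.0% of the mitosis windows against 4.65% of those of measured genes. With every listed start counted, a gene can have several windows. TTTGAA was then in 64.7% of 34 mitosis windows, against 11.8% of the windows of measured genes. An E2F word was in 62.5% of 8 replication windows, against 4.38%. The MYBL2 window held none of these letters. A match is a description of these letters and not a measured site.

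The 250 bases before the start are shown for 3 mitosis genes with different patterns over the lines, PLK1 and BUB1B, which were lowest in KM-H2, and CCNB2, which was not, with TTTGAA and CCAAT in capitals on either strand. PLK1 lies at chr16:23678639-23678888 on the plus strand, BUB1B at chr15:40160819-40161068 on the plus strand and CCNB2 at chr15:59104896-59105145 on the plus strand. TTTGAA begins 29, 23 and 29 bases before the start, and CCNB2 has 4 CCAAT boxes, read in the same direction.
PLK1: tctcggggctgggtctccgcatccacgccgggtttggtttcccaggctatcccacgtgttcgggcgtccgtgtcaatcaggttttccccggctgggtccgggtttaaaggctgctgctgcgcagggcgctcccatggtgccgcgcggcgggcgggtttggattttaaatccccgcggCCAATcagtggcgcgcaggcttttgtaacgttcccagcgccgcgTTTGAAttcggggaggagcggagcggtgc
BUB1B: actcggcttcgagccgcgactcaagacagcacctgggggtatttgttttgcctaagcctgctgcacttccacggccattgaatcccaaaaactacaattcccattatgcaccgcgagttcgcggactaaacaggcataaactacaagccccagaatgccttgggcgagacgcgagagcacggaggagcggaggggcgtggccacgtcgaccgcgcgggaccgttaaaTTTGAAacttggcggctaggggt
CCNB2: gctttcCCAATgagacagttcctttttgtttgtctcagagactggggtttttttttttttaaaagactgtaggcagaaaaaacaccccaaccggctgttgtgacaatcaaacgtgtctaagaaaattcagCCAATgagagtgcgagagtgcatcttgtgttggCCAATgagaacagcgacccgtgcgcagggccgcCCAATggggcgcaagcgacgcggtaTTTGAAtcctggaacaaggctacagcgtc

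The same stretch is shown for 3 subunits of the MCM helicase, with E2F words and CCAAT or its reverse complement in capitals. MCM3 lies at chr6:52284743-52284992 on the minus strand, MCM6 at chr2:135876444-135876693 on the minus strand and MCM7 at chr7:100101398-100101647 on the minus strand. The E2F word of MCM3 begins 174 bases before the start, and MCM6 holds 2 places where E2F words of both strands overlap.
MCM3: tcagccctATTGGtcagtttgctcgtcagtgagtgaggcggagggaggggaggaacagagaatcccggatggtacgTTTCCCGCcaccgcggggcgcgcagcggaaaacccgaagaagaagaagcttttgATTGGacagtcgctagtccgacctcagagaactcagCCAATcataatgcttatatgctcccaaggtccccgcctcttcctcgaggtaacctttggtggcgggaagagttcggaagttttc
MCM6: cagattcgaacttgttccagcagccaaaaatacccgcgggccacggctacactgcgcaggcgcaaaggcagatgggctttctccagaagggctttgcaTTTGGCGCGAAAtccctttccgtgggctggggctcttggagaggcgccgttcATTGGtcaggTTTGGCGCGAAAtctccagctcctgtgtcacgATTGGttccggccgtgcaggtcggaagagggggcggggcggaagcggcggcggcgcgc
MCM7: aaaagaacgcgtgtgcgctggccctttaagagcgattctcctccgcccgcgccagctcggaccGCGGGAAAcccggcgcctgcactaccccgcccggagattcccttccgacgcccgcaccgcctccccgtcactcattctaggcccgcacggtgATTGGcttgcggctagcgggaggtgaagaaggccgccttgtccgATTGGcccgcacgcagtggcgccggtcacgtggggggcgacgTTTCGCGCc

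Values are log2 signals from the authors' RMA normalization, on which 1 unit is a 2-fold difference and the array medians lay between 6.85 and 6.92. A value compares arrays for the same probe set and is not a level that can be set against another gene's. Of the 43 genes, 42 lay above the lower quartile of all values, 5.71, in their mean over the arrays, and KIF23 did not. The arrays of a line correlated at 0.992 to 0.995 over all probe sets, except those of SU-DHL6 at 0.981, where 465 probe sets differed more than 2-fold against 17 to 122 in the other lines. SU-DHL6 replicate 2 also stood apart in the difference between the 3' and 5' control probe sets of GAPDH, 0.47 against -0.09 to 0.16 on the other arrays, a sign of RNA or labelling quality. Mean marker levels followed the labels. The mean of 7 measured B-cell markers was 10.38 to 10.74 in the B-cell lines and 6.66 to 7.20 in the Hodgkin lines, and that of 5 Hodgkin markers was 6.30 to 6.93 and 9.14 to 10.64. The mean levels of markers of T and NK cells, of myeloid cells and of stromal, endothelial and epithelial cells lay at 6.66 to 7.09, 5.43 to 5.76 and 6.10 to 6.47 in all 6 lines, and those of erythroid cells and platelets at 6.56 to 6.77. Single markers did not all follow these means. PAX5, a B-cell marker, had a line mean of 9.66 in L1236, against 5.88 in KM-H2, 5.83 in L428 and 9.81 to 10.38 in the B-cell lines. TNFRSF8, a Hodgkin marker, had 8 in L1236, against 9.22 in KM-H2, 10.35 in L428 and 7.02 to 7.05 in the B-cell lines. CD4 had a line mean of 9.86 in KM-H2 against 7.83 to 7.96 in the other lines. PECAM1, an endothelial marker, had 9.87 in L1236 against 6.84 to 7.06. The part of these markers in the results on mitosis and replication genes was not tested.

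**Figure D1:**
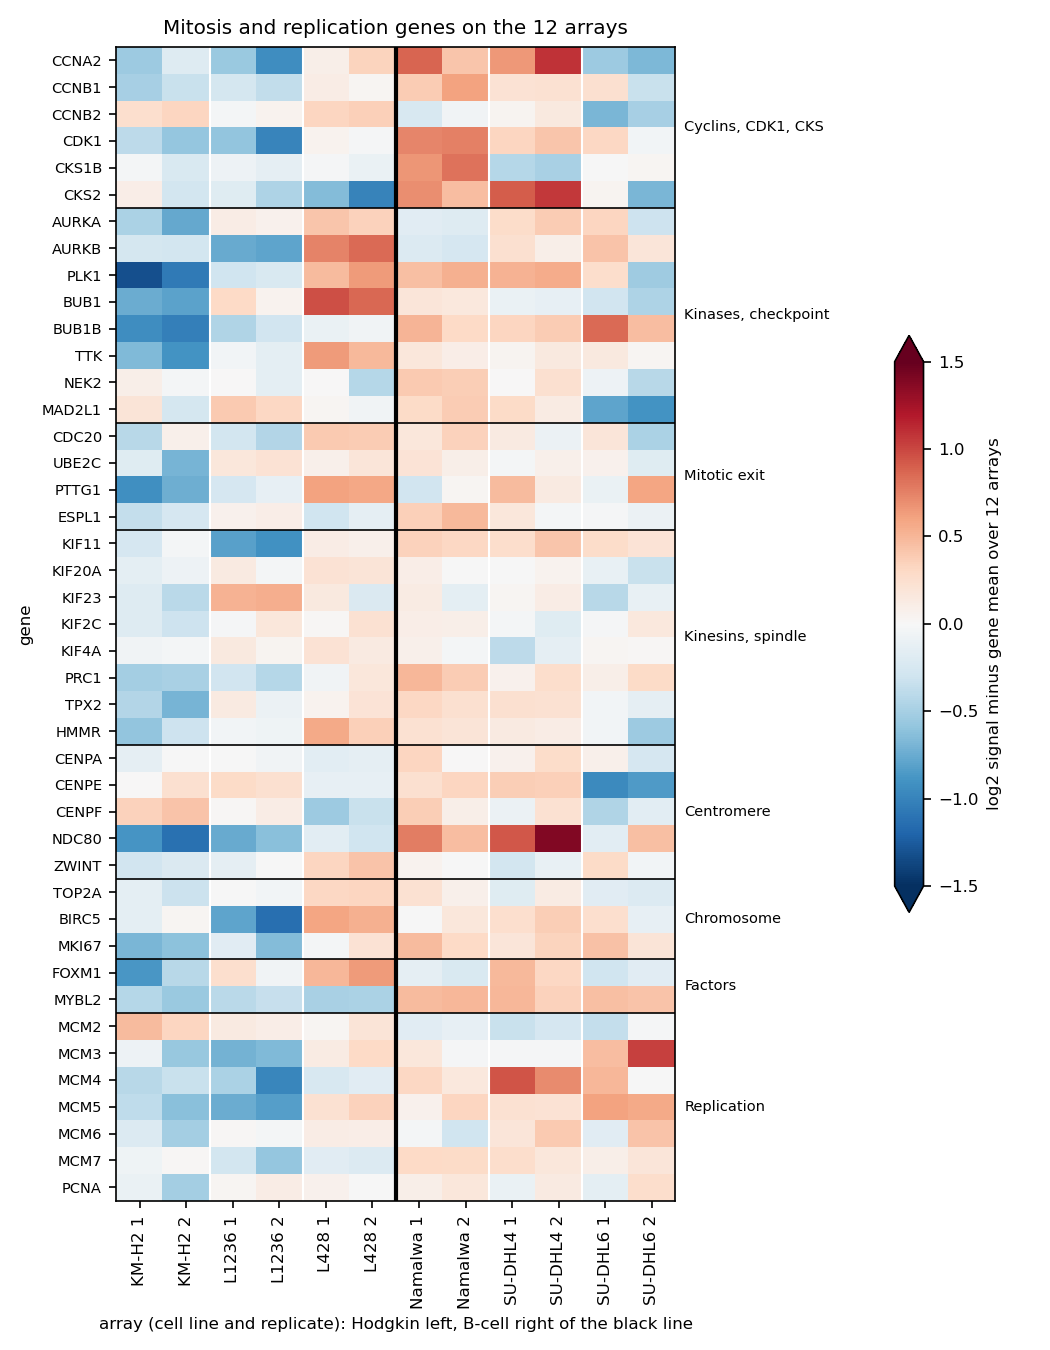
Log2 signal of the 43 genes on each of the 12 arrays (columns, by line and replicate), as the difference from the gene's own mean (colour), with genes in rows by role. Both KM-H2 columns are low over most mitosis genes, and the L428, Namalwa and SU-DHL4 columns are higher.

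Between Hodgkin and B-cell lines, 1 of the 43 genes passed the test. It was MYBL2, the B-MYB transcription factor, which was 1.86-fold lower in the Hodgkin lines. No gene was called higher. The Hodgkin mean lay below the B-cell mean for 31 of 43 genes, 25 of 36 mitosis and 6 of 7 replication genes, and the median difference was -0.17 for mitosis genes, -0.43 for replication genes and 0 over all genes. The test was limma's moderated test on the 6 line means, 3 against 3, with Benjamini-Hochberg adjustment over 22215 probe sets and a threshold of 0.05. It called 0.788% of probe sets lower and 0.441% higher in the Hodgkin lines. At an unadjusted p under 0.05, 8 of the 43 genes were lower (18.6%, against 8.89% of all genes) and 1 was higher (2.33%, against 6.46%). For 9 genes the Hodgkin line means were all below the B-cell ones, where 12.1% of probe sets showed this, and for 1 they were all above, where 10.6% did. Dataset and type are partly confounded here, and only Namalwa can be compared with the Hodgkin lines within the published dataset.

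MYBL2 measured 9.90 and 9.77 in KM-H2, 9.93 and 9.99 in L1236, 9.84 and 9.86 in L428, 10.80 and 10.83 in Namalwa, 10.83 and 10.68 in SU-DHL4, and 10.78 and 10.76 in SU-DHL6. All 6 Hodgkin arrays lay below all 6 B-cell arrays, and the lines of each type were close together. The line means were 9.88 ± 0.07 (SD, n = 3) in the Hodgkin and 10.78 ± 0.03 (SD, n = 3) in the B-cell lines, a difference of -0.90 ± 0.06 (SE, 95% interval -1.06 to -0.74, limma adjusted p = 0.012). Over the alternatives tried, the difference ran from -0.94 to -0.87 and the adjusted p from 4.68e-07 to 0.19. The call was lost without L428 (adjusted p = 0.0524), without SU-DHL4 (0.0561) or without SU-DHL6 (0.0516), with a term for dataset (-0.93, adjusted p = 0.0978) and in the published dataset alone (-0.93, adjusted p = 0.19). FOXM1, the other transcription factor of the set, differed by 0.02 ± 0.36 (SE), with line means from 8.73 in KM-H2 to 9.94 in L428, both Hodgkin lines.

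**Figure D2:**
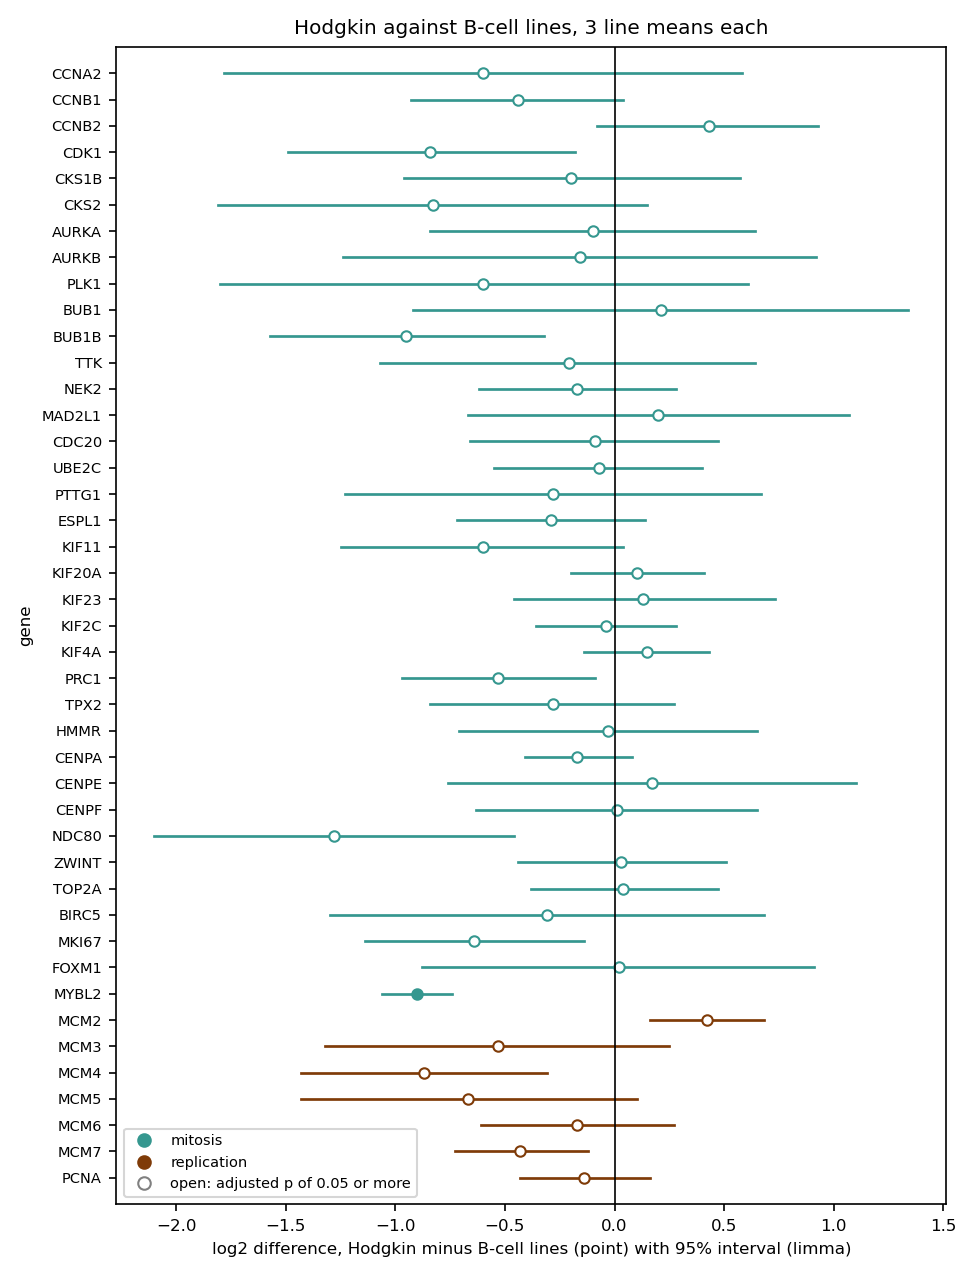
Log2 difference of the Hodgkin minus the B-cell line means for each of the 43 genes (point) with its 95% interval (line), filled where the adjusted p was under 0.05. MYBL2 is the only filled point, at -0.90; the interval of NDC80, at -1.28, is wider.

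NDC80, the kinetochore protein that grips microtubules, had the widest spread among lines of all 43 genes. It measured 7.01 and 6.77 in KM-H2, 7.14 and 7.27 in L1236, 7.74 and 7.59 in L428, 8.66 and 8.36 in Namalwa, 8.83 and 9.28 in SU-DHL4, and 7.74 and 8.34 in SU-DHL6. Every Hodgkin array lay at or below every B-cell array, and the replicates of SU-DHL4 and SU-DHL6 were 0.45 and 0.60 apart. Its difference of -1.28 ± 0.33 (SE, 2.43-fold) did not pass the test (limma adjusted p = 0.177). BUB1B, the checkpoint protein BUBR1, measured 8.94 and 8.84 in KM-H2, 9.42 and 9.58 in L1236, 9.77 and 9.81 in L428, 10.38 and 10.17 in Namalwa, 10.19 and 10.25 in SU-DHL4, and 10.72 and 10.33 in SU-DHL6. The groups did not overlap, and KM-H2 was lowest. Its difference of -0.95 ± 0.25 (SE) had an adjusted p of 0.19 in limma.

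CDK1, the kinase that drives entry into mitosis, measured 9.83 and 9.64 in KM-H2, 9.63 and 9.23 in L1236, 10.27 and 10.20 in L428, 10.95 and 10.98 in Namalwa, 10.54 and 10.64 in SU-DHL4, and 10.53 and 10.18 in SU-DHL6. Both L428 arrays lay just above the lower SU-DHL6 array, and the types' line means did not overlap. The difference was -0.84 ± 0.26 (SE, limma adjusted p = 0.25), and its 3 probe sets gave -0.84, -0.90 and -0.99. Among its partners, CCNB1 (cyclin B1) differed by -0.44 ± 0.19 (SE, adjusted p = 0.381) and CCNB2 (cyclin B2) by 0.43 ± 0.20 (SE, adjusted p = 0.416), neither past the test in limma. Those 2 cyclins of the same kinase had estimates of opposite sign. MKI67, which encodes the proliferation antigen Ki-67, differed by -0.64 ± 0.20 (SE, adjusted p = 0.244), but its 4 probe sets ranged from -1.15 to -0.14. PRC1, a bundler of midzone microtubules, differed by -0.53 ± 0.17 (SE, adjusted p = 0.271), and KIF11, the kinesin that separates spindle poles, by -0.60 ± 0.25 (SE, adjusted p = 0.372).

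For many genes the Hodgkin and B-cell means were close. ESPL1 (separase) had the smallest p of the 4 genes of mitotic exit, at -0.29 ± 0.17 (SE, limma adjusted p = 0.508), and the differences of CDC20, UBE2C (the ligase's E2 enzyme) and PTTG1 (securin) were -0.09, -0.07 and -0.28. TOP2A, the topoisomerase that untangles sister chromatids, differed by 0.04 ± 0.17 (SE, 95% interval -0.38 to 0.47). In all, 30 of the 43 differences were within 0.5 of 0. Over all genes this held for 9480 of 11963, a larger share. A p over the threshold does not show equal levels.

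Differences among the 6 lines were larger than the spread between duplicates for most of these genes. A moderated F test over the 6 lines, on the 12 arrays, with a range of line means of at least 1 (2-fold), called 21 of the 43 genes, 18 mitosis and 3 replication genes. It called 28% of probe sets and 31.0% of genes. A further 14 passed the adjusted p without that range, for 35 of 43, against 48.5% of probe sets and 53.3% of genes. The median range was 0.98 for these genes and 0.60 over all genes. Their median level was 9.87 against 7.31, so they were also brighter than most, and the part of brightness in the difference was not tested. The labels do not say whether a line's duplicates were grown separately, and the p-values of tests on arrays therefore cover only array-to-array spread, possibly technical.

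The calls were uneven over roles. Of the mitotic kinases and checkpoint genes, 7 of 8 differed among lines, all but NEK2, a centrosome kinase, which ranged over 0.63 (limma adjusted p = 0.0531). Of the cyclins, CDK1 and its CKS subunits, 4 of 6 did, with CKS2 the widest, 3.53-fold between SU-DHL4 and L428. Of 8 kinesins and spindle proteins, KIF11 alone did, with a range of 1.20, and KIF2C, a kinesin that depolymerises microtubules, ranged over 0.38. Of 5 centromere and kinetochore genes, NDC80 (4.51-fold) and CENPE, a kinetochore motor (2.39-fold), did. BIRC5 (survivin, of the chromosome passenger complex, 2.88-fold), MKI67 (2.04-fold), PTTG1 (2.68-fold) and FOXM1 (2.31-fold) also did. Without KM-H2 replicate 1 the range of FOXM1 was 0.97, under the size of 1, and its call was lost. The counts by role rest on 1 probe set per gene. Another probe set of CENPF, a centromere gene not called, ranged over 1.35 (limma adjusted p = 8.06e-05), against 0.83 on the one used. AURKA, a kinase that was called, ranged over 1 on the one used and 0.90 on another.

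**Figure D3:**
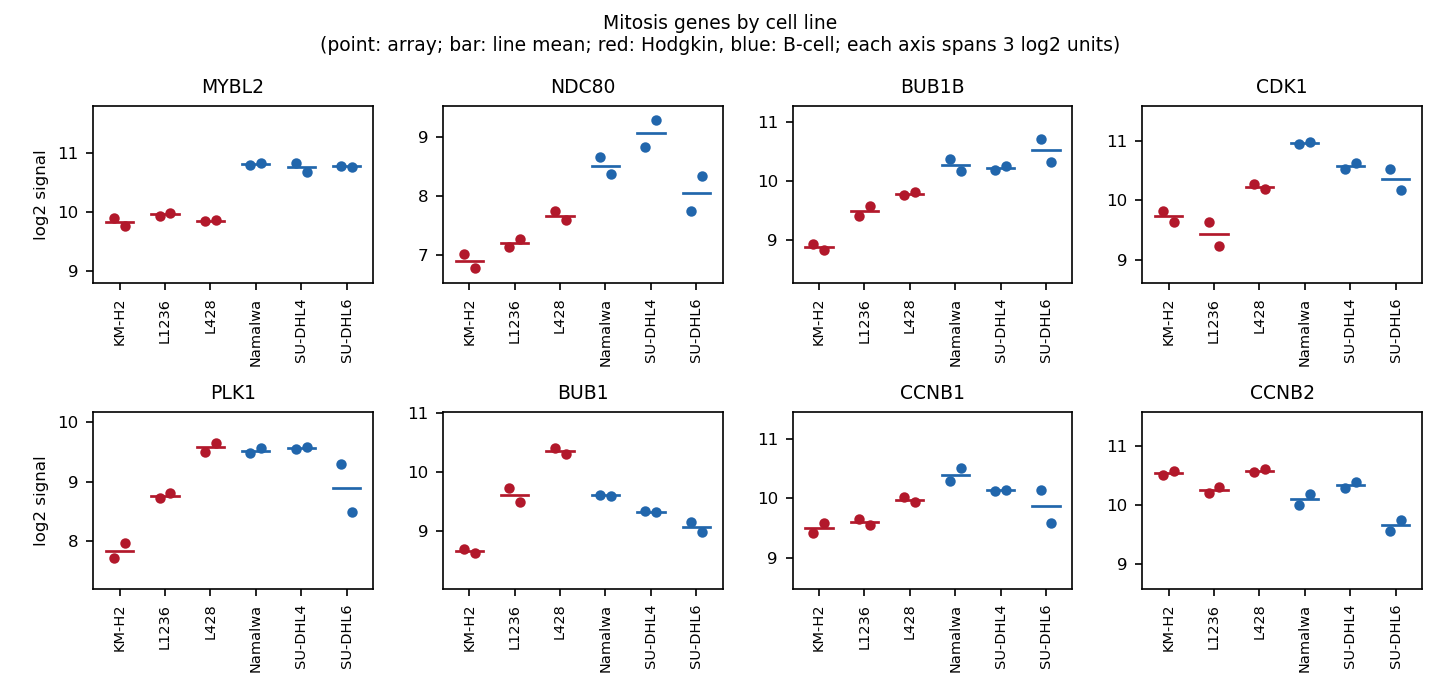
Log2 signal of 8 mitosis genes in the 6 lines, with a point for each array and a bar at each line mean (red Hodgkin, blue B-cell), every axis spanning 3 log2 units. MYBL2 falls into 2 tight levels by type, PLK1 and BUB1 are lowest in KM-H2 but high in L428, and CCNB2 has its lowest points in SU-DHL6.

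The 36 mitosis genes of the set were most often lowest in KM-H2. It was the lowest of the 6 lines for 20 of 36 mitosis genes, and KM-H2 was lowest for 15.7% of all genes. Against the mean of the other 5 lines, 3 genes were lower by at least 1 in limma with adjusted p under 0.05, namely PLK1, NDC80 and BUB1B, where 3.13% of probe sets were. With no minimum size, 22 of 36 mitosis genes were lower and 2 higher, against 14.9% of probe sets and 16.5% of all genes lower. In the 76 other mitosis genes described below, KM-H2 and L1236 were closer. KM-H2 was lowest for 28 (36.8%) and L1236 for 24 (31.6%), against 15.7% and 18.5% of all genes. With no minimum size, 34 of the 76 were lower and 6 higher in KM-H2, and 31 lower and 8 higher in L1236. PLK1, the Polo kinase, measured 7.71 and 7.96 in KM-H2, 8.73 and 8.80 in L1236, 9.50 and 9.66 in L428, 9.48 and 9.56 in Namalwa, 9.55 and 9.58 in SU-DHL4, and 9.29 and 8.49 in SU-DHL6. Both KM-H2 arrays lay below all others, the lower SU-DHL6 array came next, and the other Hodgkin line L428 was among the highest. PLK1 was lower in KM-H2 by -1.43 ± 0.16 (SE, 2.69-fold, limma adjusted p = 0.00012). NDC80 differed there by -1.21 ± 0.16 (SE, adjusted p = 0.000351 in limma) and BUB1B by -1.17 ± 0.10 (SE, adjusted p = 2.16e-05). TTK, the checkpoint kinase MPS1, had its lowest line mean there too, 8.02 against 8.70 to 9.36.

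L428, also a Hodgkin line, ran the other way in the 36 mitosis genes of the set. It was highest for 16 of 36 mitosis genes (15% of all genes were highest there). With no minimum size, 13 of the 36 were higher and 4 lower, against 11.2% of probe sets and 12.9% of all genes higher. Among the lower was CKS2, by -1 ± 0.18 (SE, limma adjusted p = 0.00266). The other mitosis genes described below did not show this. L428 was highest for 11 of those 76 (14.5%), with 11 higher and 12 lower at no minimum size. BUB1, the checkpoint kinase, measured 8.70 and 8.64 in KM-H2, 9.74 and 9.50 in L1236, 10.41 and 10.30 in L428, 9.62 and 9.60 in Namalwa, 9.34 and 9.32 in SU-DHL4, and 9.15 and 8.98 in SU-DHL6. Both L428 arrays lay above all others and both KM-H2 arrays below, so the extremes were both Hodgkin lines for this probe set. On another BUB1 probe set, which also differed among lines (limma adjusted p = 0.00594), L428 was highest at a line mean of 9.12 and SU-DHL6 lowest at 7.48, with KM-H2 at 7.76. BUB1 was higher in L428 by 1.09 ± 0.08 (SE, 2.13-fold, limma adjusted p = 7.95e-06), where 3.16% of probe sets were higher by at least 1. Averaged over its 5 probe sets, that difference was 0.45. AURKB, the kinase of the passenger complex, had line means of 9.40 in L428 and 7.83 to 8.91 elsewhere.

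In L1236, BIRC5 measured 8.90 and 8.56, against 9.55 to 10.29 on the other 10 arrays, and KIF11 8.26 and 8.16, against 8.82 to 9.49. Neither gene's L1236 arrays overlapped those of any other line. BIRC5 was lower there by -1.16 ± 0.12 (SE, limma adjusted p = 5.13e-05) and KIF11 by -1.03 ± 0.08 (SE, adjusted p = 6.61e-06), where 3.04% of probe sets were lower by at least 1. Without L1236 replicate 2 the differences were -0.99 and -0.98, just under that size. With no minimum size, 10 of 36 mitosis genes were lower in L1236, against 15.8% of probe sets and 17.5% of all genes.

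SU-DHL4 had 3 genes higher by at least 1, against 3.41% of probe sets. NDC80 was higher by 1.40 ± 0.16 (SE, limma adjusted p = 0.00017). CKS2, a small CDK subunit, measured 11.72 and 11.87, above the 9.80 to 11.50 of the other arrays, and was higher by 1.19 ± 0.18 (SE, limma adjusted p = 0.000908). CCNA2 (cyclin A2) measured 10.34 and 10.77, overlapping Namalwa at 10.56 and 10.10, and was higher by 1.04 ± 0.16 (SE, limma adjusted p = 0.001), but by 0.83 without SU-DHL4 replicate 2. With no minimum size, 12 of 36 mitosis genes were higher in SU-DHL4, against 14.1% of probe sets and 14.6% of all genes.

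SU-DHL6 had 2 genes lower by at least 1, against 2.52% of probe sets. CENPE measured 7.24 and 7.35, below the 8.07 to 8.56 of the other arrays, and was lower by -1.08 ± 0.08 (SE, limma adjusted p = 7.39e-06), and by -1.14 without SU-DHL6 replicate 2. MAD2L1 (MAD2, the checkpoint inhibitor of CDC20) measured 9.12 and 9.01, below the 9.64 to 10.30 of the other arrays. It was lower by -1.01 ± 0.11 (SE, limma adjusted p = 0.000125), just past the size of 1. The difference was -0.95 without SU-DHL6 replicate 2, -0.96 without KM-H2 replicate 1 and -0.99 without SU-DHL4 replicate 1. On SU-DHL6 replicate 2, which stood apart in quality, PLK1 lay 0.80 below replicate 1, the largest gap between duplicates among these genes. Without it, the lower level of PLK1 in KM-H2 was -1.51 in place of -1.43.

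Namalwa had 0 of 43 genes past the size of 1 in limma, where 2.38% of probe sets were higher and 1.82% lower. With no minimum size, 17 of its 36 mitosis genes were higher and 1 was lower, against 11.8% of probe sets and 12.9% of all genes higher. Namalwa was the highest line for 9 mitosis genes, among them CDK1 (line mean 10.97) and CKS1B, another CDK subunit (11.31 against 10.12 to 10.58). Its differences thus stayed under the size of 1, the largest being 0.90 for CDK1 (1.86-fold), and were mostly of the same sign. The 6 contrasts share arrays, so their counts are not independent of each other.

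**Figure D4:**
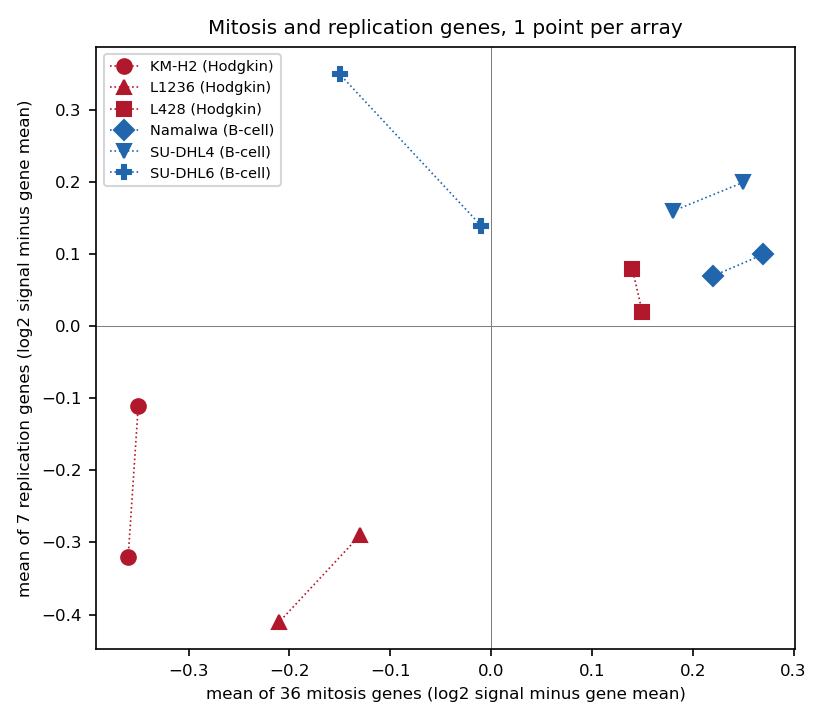
Mean of the 36 mitosis genes (horizontal) and of the 7 replication genes (vertical) on each array, after subtracting each gene's mean over the arrays (log2), with the 2 arrays of a line joined. The KM-H2 arrays lie at -0.35 and -0.36 for mitosis genes, and the SU-DHL6 arrays combine mitosis values of -0.01 and -0.15 with replication values of 0.14 and 0.35.

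Over the 36 mitosis genes, the mean difference from each gene's own mean was -0.35 and -0.36 on the KM-H2 arrays, -0.13 and -0.21 in L1236, 0.15 and 0.14 in L428, 0.27 and 0.22 in Namalwa, 0.18 and 0.25 in SU-DHL4, and -0.01 and -0.15 in SU-DHL6. The Hodgkin and B-cell arrays overlapped, with L428 among the B-cell lines. For the 7 replication genes it was -0.11 and -0.32 in KM-H2, -0.29 and -0.41 in L1236, 0.02 and 0.08 in L428, 0.10 and 0.07 in Namalwa, 0.16 and 0.20 in SU-DHL4, and 0.14 and 0.35 in SU-DHL6. KM-H2 was thus lowest for mitosis genes and L1236 for replication genes, and in SU-DHL6 the lower mitosis value and the higher replication value were both those of replicate 2, the array that stood apart in quality. Replicate 1 of SU-DHL6, at 0.14 for replication genes, lay below both SU-DHL4 arrays. The order of KM-H2 and L1236 in the replication genes did not hold on every array.

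As a description over 6 line means, the median correlation was 0.36 over 630 pairs of mitosis genes, 0.39 over 21 pairs of replication genes, 0.27 between the sets and 0.02 over pairs of all genes. The lines share arrays and normalization across genes. PLK1 (r = 0.96), CCNB1 (0.94) and TPX2, the activator of AURKA (0.91), followed the mean of the other mitosis genes most closely. CENPF, a kinetochore protein (-0.34), KIF4A, a chromosome-bound kinesin (-0.19), and CCNB2 (-0.10) did not follow it. CCNB2 measured 10.50 and 10.57 in KM-H2, 10.21 and 10.30 in L1236, 10.56 and 10.60 in L428, 10.00 and 10.19 in Namalwa, 10.28 and 10.39 in SU-DHL4, and 9.56 and 9.75 in SU-DHL6. It was high in KM-H2, where most mitosis genes were low, and lowest in SU-DHL6.

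None of the 7 replication genes passed the test between types. MCM4, a helicase subunit, measured 9.76 and 9.84 in KM-H2, 9.70 and 9.20 in L1236, 9.94 and 10.01 in L428, 10.49 and 10.34 in Namalwa, 11.12 and 10.89 in SU-DHL4, and 10.67 and 10.17 in SU-DHL6. The Hodgkin arrays all lay below the B-cell arrays, with SU-DHL4 highest. The difference was -0.87 ± 0.22 (SE, 1.83-fold, limma adjusted p = 0.179), and its 4 probe sets gave -1.39 to -0.74. MCM2, a subunit of the same ring, measured 11.77 and 11.62 in KM-H2, 11.43 and 11.40 in L1236, 11.33 and 11.49 in L428, 11.13 and 11.17 in Namalwa, 10.96 and 11.04 in SU-DHL4, and 10.94 and 11.28 in SU-DHL6. It was the only replication gene with a higher Hodgkin mean, the Hodgkin arrays all lay above the B-cell arrays, and KM-H2 was highest. The difference was 0.42 ± 0.10 (SE, 95% interval 0.16 to 0.68, limma adjusted p = 0.169).

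The other subunits had lower Hodgkin means, none past the test in limma. The differences were -0.53 ± 0.31 (SE) for MCM3, -0.67 ± 0.30 (SE) for MCM5, -0.17 ± 0.17 (SE) for MCM6 and -0.43 ± 0.12 (SE, adjusted p = 0.213) for MCM7. MCM7 did not overlap between types, with line means of 10.64 to 11.05 and 11.21 to 11.37. That of MCM6 was 0.07 within the published dataset, the opposite sign. PCNA, the sliding clamp, differed by -0.14 ± 0.12 (SE) and ranged over 0.43 among lines. Among lines, MCM3 (range 1.43, lowest in L1236 and highest in SU-DHL6), MCM4 (1.55, lowest in L1236 and highest in SU-DHL4) and MCM5 (1.37, lowest in L1236 and highest in SU-DHL6) differed past the size of 1. MCM2 ran against the other replication genes over the 6 lines (r = -0.83), and MCM5 followed them (r = 0.95).

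**Figure D5:**
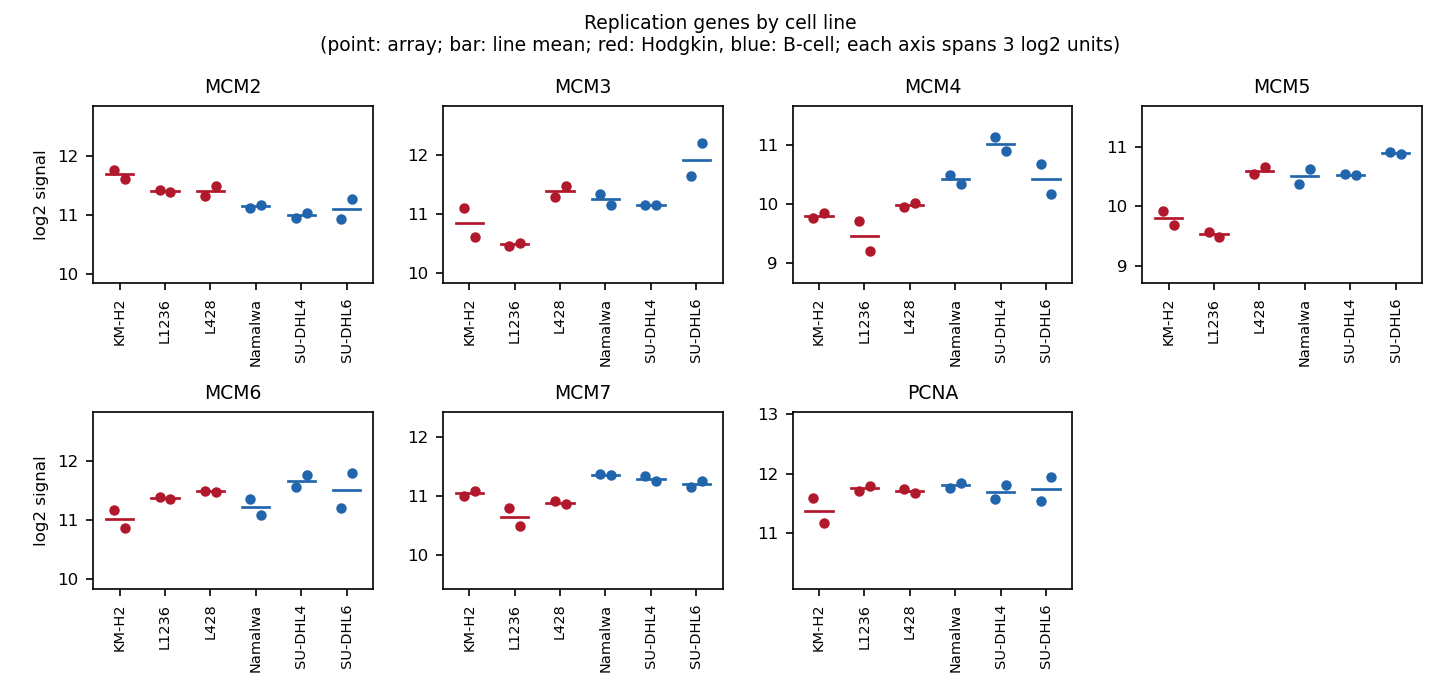
Log2 signal of the 7 replication genes in the 6 lines, with a point for each array and a bar at each line mean (red Hodgkin, blue B-cell), every axis spanning 3 log2 units. MCM2 is higher in the Hodgkin lines, MCM4 and MCM7 are lower, and PCNA is nearly level apart from 1 of the 2 KM-H2 arrays, at 11.16.

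Other genes of the same pathways, from lists also chosen with earlier results of these data known, were counted in the same way. Of 76 measured genes of mitosis outside the set, 1 was lower in the Hodgkin lines, 0 were higher, where 0.788% of probe sets were lower and 0.441% higher. At an unadjusted p under 0.05 the counts were 17 (22.4%, against 8.89% of all genes) and 0 (against 6.46%). The gene called was CENPM, a kinetochore protein, with line means of 8.12 to 8.51 in the Hodgkin and 9.28 to 9.54 in the B-cell lines, a difference of -1.05 ± 0.14 (SE, limma adjusted p = 0.0477), lost under 14 of 27 alternatives, among them leaving out any of the 6 lines, with adjusted p from 9.41e-05 to 0.323. SKA1, a microtubule-coupling protein of the kinetochore (-1.30, adjusted p = 0.0816), and STMN1, the microtubule destabiliser stathmin (-0.83, adjusted p = 0.129), had the next smallest p in limma. Among lines, 38 of the 76 differed (31.0% of all genes did), the widest being WEE1, the kinase that inhibits CDK1 (6.11-fold, highest in SU-DHL6 and lowest in L1236), CENPU, a kinetochore protein (4.90-fold, lowest in KM-H2), and PBK, a mitotic kinase (4.43-fold, lowest in KM-H2).

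Of 71 measured genes of DNA replication outside the set, 3 passed as lower in Hodgkin lines and 0 as higher, against the same 0.788% and 0.441% of probe sets. At an unadjusted p under 0.05, 13 were lower (18.3%, against 8.89% of all genes) and 1 was higher (1.41%, against 6.46%). RFC3, a subunit of the clamp loader, had line means of 8.81 to 8.97 in the Hodgkin and 10.33 to 10.98 in the B-cell lines, a difference of -1.69 ± 0.19 (SE, limma adjusted p = 0.031). TFDP1, the dimer partner of E2F factors, had 9.63 to 10.06 and 11.09 to 11.62, a difference of -1.61 ± 0.19 (SE, limma adjusted p = 0.035). GINS3, of the GINS complex of the replicative helicase, differed by -0.71 ± 0.09 (SE, limma adjusted p = 0.0378). These calls were lost under 8, 8 and 11 of 27 alternatives, including the dataset as a block, the published dataset alone and leaving out a line (any line for GINS3, any but SU-DHL4 for RFC3 and any but KM-H2 for TFDP1), with adjusted p up to 0.215, 0.242 and 0.327. Among lines, 34 of the 71 differed (47.9%, against 31.0% of all genes). With 1 probe set per gene the widest were E2F5, a repressor E2F (range 3.73, 13.3-fold, highest in Namalwa), TFDP2, another dimer partner (range 2.63, 6.17-fold, lowest in SU-DHL6), and PRIM1, the primase subunit (range 2.28, 4.87-fold, highest in L1236). With all probe sets of a gene averaged, the range was 2.04 for E2F5, below the 2.26 of TFDP2 and the 2.28 of PRIM1.

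In the authors' deposited table, which compares the same types and whose log2 differences equal those of the 6 against 6 array means, 9 of the 43 genes were lower and 1, MCM2, was higher at the same adjusted threshold, where 8.23% of probe sets were lower and 5.24% higher. The table counts 2 arrays of a line as separate samples as far as its values show. With the line as the unit, the counts were 1 and 0.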

How the data were processed

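In all, 12 arrays of 6 cell lines were analysed. Precision is limited by the number of lines between types and by the number of arrays among lines. The deposited values are log2 signals per probe set, which the authors made with RMA in R 2.10.1, per the labels and the submitters' processing notes; its settings were not stated. RMA forces all arrays to 1 distribution, so a shift of all RNA is not visible. The authors' deposited table holds log2 differences, p-values and Benjamini-Hochberg adjusted p-values from a moderated test, per the series' design text.

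Of 22283 probe sets, 68 controls were left out. Genes were named from the platform annotation; 19065 probe sets had 1 symbol, 1043 several and 2107 none. In R 4.3.3, limma 3.58.1 was fitted to all 22215 probe sets in 3 ways: on the 6 line means for Hodgkin against B-cell lines, on 12 arrays with an F test over lines, and on 12 arrays for a line minus the average of the remaining 5. Each fit was also run on simulated data with known changes. Those data held no dataset effect and no array of odd quality, so they do not show how the fits handle these. The genes named are those called in the first test, those with the smallest p and the widest range within a role, and the largest called differences of each line, and, of other pathway genes, the 3 with the smallest p and the 3 with the widest range; others shown were chosen after their values were seen. The members and lists were chosen with earlier results of these data known. The alternatives left out each line or array, and changed the unit of replication, dataset, scaling, dim filter, probe set rule, prior variance and size threshold. The correlation of deviations of same-numbered arrays, over 15 pairs of lines, was -0.44 to 0.30 (4 over 0.1), so the numbers were not used to pair arrays.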

Additional observations from a re-analysis of the deposited data

How the results depend on the processing

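Of 1017 alternatives for single genes, 929 kept direction and side of the threshold, 56 lost the call, 30 gained it and 2 changed sign. The latter were MCM6, at 0.07 with the dataset as a block and in the published dataset only. A gene that was not called counts as kept where it stayed uncalled, so the total does not measure how stable the calls were. Of the genes called between types, the call was lost under 5 of 27 alternatives for MYBL2, 14 for CENPM, 8 for RFC3, 8 for TFDP1 and 11 for GINS3. The 273 probe sets called between types became 153 without L1236, 86 without L428, 146 without Namalwa, 42 without SU-DHL4, 66 without SU-DHL6, 45 with the dataset as a block and 46 in the published dataset only, where fewer lines enter; leaving out single arrays gave 212 to 273. Counting 12 arrays as samples gave 2996 and the authors' own comparison 2993. The genes of the set called lower, 1 here, were 0 without L428, SU-DHL4 or SU-DHL6, with the dataset as a block and in the published dataset, 9 with 12 arrays and 9 in the authors' deposited table; those called higher, 0 here, were 1 in the latter 2. Genes called lower stayed at 1 when any single array was left out.

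With the replicate number as a block on 12 arrays, 2546 probe sets were called, 8 genes of the set lower and 1 higher; the same 12 arrays without the block gave 9 lower and 1 higher. The block changed no call of a named gene among lines or of a line against the others.

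Differences among lines were called for 6211 probe sets, 6067 to 6592 without single arrays, 10775 with no minimum size and 3420 genes with probe sets averaged; in the set, for 21 genes, 20 to 22 without single arrays and 35 with no minimum size. Calls of a line against the others became 4118 with probe sets averaged, 34037 with no minimum size and 7502 to 8027 without single arrays; in the set, 11 became 112 with no minimum size and 10 to 16 without single arrays. Except where other causes are named, the cause was not tested. Dim signal limits KIF23.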
